A study of Mus musculus with 70 samples.

Results

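The T3-regulated open chromatin of the pituitary gland was taken as the complete list of regions whose accessibility differed between hyperthyroid and hypothyroid mice in immunopurified nuclei of the Thrb lineage. All 1776 regions of that list were kept, out of 9827 regions when the 8051 binding sites of the thyroid hormone receptor TRβ in untreated pituitary are counted with them. The list holds coordinates on mouse build mm9 and gives no direction of change. A site that opened with T3 therefore cannot be told here from a site that closed. A site described as having no TRβ peak overlaps none of the 8051. Binding in hypothyroid or hyperthyroid mice was not used, so such a site may still be bound there.

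The nuclei came from adult male mice (2 to 4 months old) in which Thrb b2Cre, a Cre placed under the b2 promoter within the animal's own Thrb gene, switches on a nuclear envelope tag from the Rosa26 Sun1-GFP allele. The labels give the strain as C57BL/6J, and the study's methods give a C57BL/6J × 129/Sv background for this cross. Both conditions carried Cre and tag, and each had 4 ATAC-seq libraries (assay for transposase-accessible chromatin) of about 50000 nuclei from 1 to 2 pituitaries by the labels and methods, while a legend of the study gives pools of 3 mice. Hypothyroid (MMI) mice received 0.05% methimazole and 1% potassium perchlorate as drinking water over 4 to 5 weeks, and hyperthyroid mice received the same water with 0.5 µg/ml T3 added for the final 1 week. RNA was compared in whole pituitary of C57BL/6J males under the same treatments, in 4 libraries per treatment from wild type and 5 per treatment from Thrb-deficient (Thrb-KO) mice, where every library pooled 3 pituitaries. Thrb b2Cre marks anterior cells that include those making TSH subunits, GH and prolactin, so the nuclei are a mixture of cell types and the RNA is from a wider one. In such bulk samples fewer cells of a type and less RNA per cell cannot be told apart. The TRβ peaks came from another cross, untreated males homozygous for a HAB tag on TRβ and for the BirA ligase that biotinylates it. Control males carried BirA alone. Tagged receptor and its DNA were pulled down with streptavidin and sequenced (ChAP-seq), in 3 libraries per genotype. By the study's methods this cross mixed 129, C57BL/6J and FVB/N backgrounds.

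T3 acts through nuclear receptors that sit on DNA with or without hormone and change the activity of nearby genes when hormone binds. The classic receptor element is a direct repeat of the half-site AGGTCA with a spacer of 4 bases, on which TRβ pairs with a retinoid X receptor. In the pituitary T3 is known to lower the TSH subunits, closing the feedback loop of the thyroid axis, and to raise growth hormone in rodents. Open chromatin marks DNA that regulatory proteins can reach, and a transposase that inserts into it gives the ATAC signal.

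A direct repeat matching all 12 bases of both half-sites was found in 9 of the 1776 sites, and each of the 9 overlapped a TRβ peak. They are shown because they are the exact form of the element, each named after the nearest protein-coding start, read 5′ to 3′ on the strand given, with the half-sites in capitals and the spacer in lower case.
Slco5a1, chr1:12944449-12944464 (plus strand): AGGTCAtataAGGTCA
Uck2, chr1:169170718-169170733 (minus strand): AGGTCAgctgAGGTCA
Cdh26, chr2:178530739-178530754 (plus strand): AGGTCAggtcAGGTCA
D3Bwg0562e, chr3:117004132-117004147 (plus strand): AGGTCAtcagAGGTCA
4922501L14Rik, chr3:154313143-154313158 (minus strand): AGGTCAaaccAGGTCA
Ggh, chr4:19963137-19963152 (plus strand): AGGTCAttccAGGTCA
Bmper, chr9:23105030-23105045 (minus strand): AGGTCAgaagAGGTCA
Nmral1, chr16:4702855-4702870 (plus strand): AGGTCAggacAGGTCA
Phex, chrX:153772860-153772875 (minus strand): AGGTCAggccAGGTCA
The spacers differ in all 9, while the half-sites are the same by construction. Of the genes that give the names, Slco5a1 and Uck2 rose with T3 in wild-type RNA (log2 change 1.59 and 1.45), Bmper and Ggh fell (−0.75 and −0.67), and the other 5 were not called. The site named after Cdh26 lies 365389 bp from that gene's start, so the name marks a position and not a target.

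For comparison, the best repeats at some of the genes described below are shown in the same way. Each matches 10 or 11 of the 12 bases.
Sspo, chr6:48442916-48442931 (minus strand): AGGTCTcctaAGGCCA
Bmp7, chr2:172767536-172767551 (minus strand): TGGTCAccggAGGTCA
Col4a3, chr1:82586967-82586982 (minus strand): AGGGCAtgcaGGGTCA
Hunk, chr16:90503939-90503954 (plus strand): AGATCAttcgAGGACA
Ttbk1, chr17:46585294-46585309 (minus strand): AGGTCAggtgAGGACA
2010111I01Rik, chr13:63358256-63358271 (minus strand): AGTTCAagccAGGTCA
2010111I01Rik, chr13:63401996-63402011 (minus strand): AGGTCAtcgcCGGCCA
Whrn, chr4:63085173-63085188 (minus strand): TGGCCAttgtAGGTCA
Whrn, chr4:63140410-63140425 (plus strand): AGGCCActgcAGGCCA
Thrb, chr14:18507070-18507085 (minus strand): GGGTCAtctgAGGACA
Bcl3, chr7:20395055-20395070 (minus strand): AGGCCAagcgAGGCCA
Klf9, chr19:23208662-23208677 (plus strand): AGGGCAgggcAGGGCA
Myh6, chr14:55587347-55587362 (plus strand): GGGTCAgcttGGGTCA
Ceacam16, chr7:20449783-20449798 (minus strand): AGGTGAggtaAGGTCA
Tmc3, chr7:90733401-90733416 (minus strand): AGGGCAgccaGGGTCA
The repeats at Bmp7, Ttbk1, Ceacam16 and the first of 2010111I01Rik match 11 bases. The repeat at Tmc3 lies in a site without a TRβ peak, and the others lie in sites with one. RNA fell for Tmc3 and also for Thrb, whose repeat lies under a TRβ peak.

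Complete sites were printed for Bmp7, Myh6 and Uck2, because each is short enough to show where the repeat lies in the open region. All 3 are given on the plus strand, with the half-sites of the best repeat in capitals, so a repeat on the minus strand appears as its reverse complement.
Bmp7 site, chr2:172767466-172767654: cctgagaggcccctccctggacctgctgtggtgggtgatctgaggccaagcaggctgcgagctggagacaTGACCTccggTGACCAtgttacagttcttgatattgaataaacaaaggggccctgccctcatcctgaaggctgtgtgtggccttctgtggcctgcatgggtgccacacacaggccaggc
Myh6 site, chr14:55587220-55587399: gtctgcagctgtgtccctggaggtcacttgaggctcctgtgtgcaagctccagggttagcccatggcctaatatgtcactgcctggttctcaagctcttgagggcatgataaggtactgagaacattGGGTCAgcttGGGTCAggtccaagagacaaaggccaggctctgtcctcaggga
Uck2 site, chr1:169170618-169170848: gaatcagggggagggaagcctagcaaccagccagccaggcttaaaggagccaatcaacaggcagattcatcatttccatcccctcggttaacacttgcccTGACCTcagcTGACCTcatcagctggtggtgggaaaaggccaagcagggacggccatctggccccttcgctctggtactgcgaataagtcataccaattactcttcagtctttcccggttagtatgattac
The Bmp7 site is 189 bp wide and lies upstream of the gene, the Myh6 site is 180 bp wide and lies upstream of Myh6, and the Uck2 site is 231 bp wide and intronic. TRβ-HAB reads over control reads in the overlapping peaks were 16 over 3, 41 over 9 and 68 over 3. The site at Tmc3 is of like width (224 bp) but has no TRβ peak, and was not printed in full.

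The sites were short and scattered. Width ran from 76 to 1393 bp with a median of 301 bp and quartiles of 225 and 399 bp, with 105 sites below 150 bp. Together they covered 579.3 kb, or 0.0218% of the genome. The widest site, at chr11:106160347-106161739, lies over the 3′ end of Gh, the growth hormone gene, and has no TRβ peak of the untreated list. The study itself reports TRβ-bound sites at Gh. The median gap between neighbours on a chromosome was 733.3 kb, from 35 bp to 27.17 Mb. Of 1755 gaps, 30 were under 1 kb, 47 under 5 kb and 104 at most 20 kb.

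**Figure D1:**
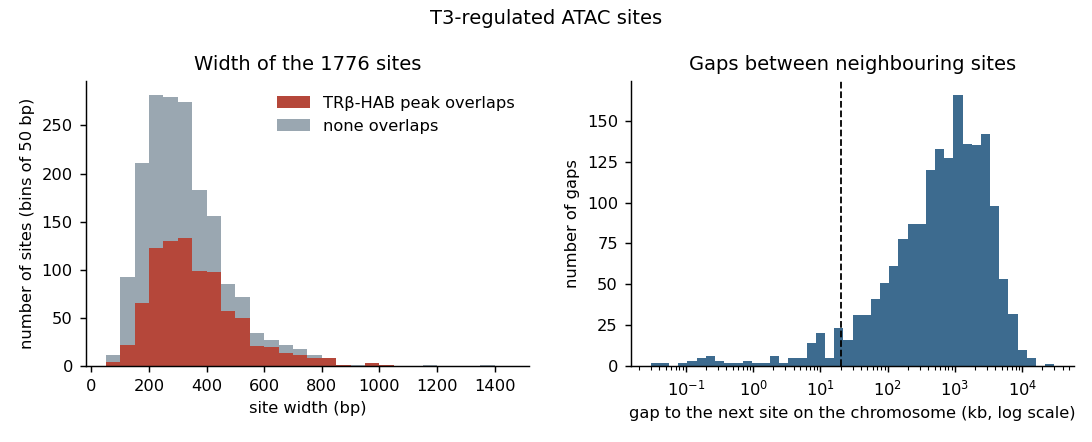
Number of sites by width in bins of 50 bp, stacked by overlap with a TRβ-HAB peak, and number of gaps by size in kb on a log axis with a dashed line at 20 kb, for all 1776 T3-regulated ATAC sites and 1755 gaps. Widths gather around 301 bp, and most gaps are far above the 20 kb line, with a median of 733.3 kb.

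Joining neighbours no more than 20 kb apart placed 199 sites (11.2%, 95% Wilson interval 9.82% to 12.8%) in 86 pairs and 9 groups of 3, and left 1577 alone. No group held more than 3 sites. Among the 8051 TRβ peaks 32.7% were clustered by the same rule, but that list is longer. Among the 1776 of them with the most reads, 18.2% were clustered, and the longest run held 11 peaks.

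The tightest group of 3 spans 814 bp at chr17:56997788-56998601, in an intron of Acsbg2, an acyl-CoA synthetase gene, and all 3 sites overlap the same TRβ peak. Acsbg2 RNA was 0.0273 ± 0.0235 CPM (read counts scaled to the library total; SD, n = 4) in hypothyroid and 0.0676 ± 0.0303 (n = 4) in hyperthyroid wild type, near the level of 1 read, and was not tested. The next tightest spans 1027 bp on chromosome 18, downstream of Sh3rf2, with a TRβ peak at 1 of its 3 sites, and Sh3rf2 RNA rose by 1.70 on the log2 scale (limma adjusted p = 6.72e-09). A group at chr12:114573510-114574852 lies within 20 kb of no gene of the RNA table and has no TRβ peak. The group at chr6:126909258-126913803 lies in D6Wsu163e, whose RNA had a log2 change of 0.17 (limma adjusted p = 0.525). The group at chr1:94321066-94329139 lies beside Ndufa10, a subunit gene of respiratory complex I, with a TRβ peak at each site and an RNA change of −0.08 (limma adjusted p = 0.827). The group at chr7:20437277-20450512 lies over Ceacam16, which is described below.

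Clustered and lone sites were alike in width, with medians of 298 and 302 bp. A TRβ peak overlapped 56.3% of clustered sites (Wilson interval 49.3% to 63.0%) and 48.1% of lone sites (45.6% to 50.5%), so the intervals overlap. In the 104 neighbouring pairs, both sites had a TRβ peak in 36, only 1 had it in 44, and neither in 24. The repeat, allowing 2 mismatches in 12 bases, was in 29.7% of clustered sites (23.7% to 36.3%) and 31.1% of lone sites (28.8% to 33.4%).

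Receptor overlap differed with width. With sites ranked by width in 4 groups of near equal size, 34.4% of the narrowest, with a median of 182 bp, had a TRβ peak (Wilson interval 30.1% to 38.9%), against 66.3% (61.8% to 70.5%) of the widest, with a median of 485.5 bp. The groups between had 44.6% and 50.8%. The repeat followed the same order, from 22.7% through 30.8% and 32.9% to 37.3%. A wider site has more room for an overlap and for a match, and regions of equal width 10 kb downstream held the repeat in 1.12%, 2.01%, 5.44% and 3.85% of these groups.

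Over all sites the repeat was found in 549, or 30.9% (Wilson interval 28.8% to 33.1%), against 3.10% of the equally wide regions 10 kb downstream and 3.27% of those 10 kb upstream. With 1 mismatch allowed the shares were 6.53% in sites and 0.282% downstream. The repeat's median distance from the site centre was 49.5 bp, and 276 of the 549 lay within 50 bp. Most sites with the element held 1 copy (484 sites), and 56 held 2. The site at chr16:4702660-4703053, in an intron and named above after Nmral1, held 8 matches, the most of all sites.

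Other motifs were counted on both strands as exact letters, and a site may hold several of them. The half-site AGGTCA alone, which a full repeat also contains, was in 41.9% of sites and 17.7% of downstream regions. The AP-1 motif TGANTCA was in 23.1% and 9.63%, and its share was 23.0% in sites with a TRβ peak and 23.3% in sites without. The E-box CAGATG, a form bound by NEUROD factors, was in 40.6% and 22.1%, and the GC box GGGCGG in 9.23% and 2.93%. TGTTTAC, a forkhead motif, was in 7.04% and 4.56%. The pituitary factor motifs TATNCAT (POU1F1) and TAATCC (PITX) were in 16.4% and 13.5% of sites against 18.7% and 12.4% of downstream regions, and the GATA factor motif AGATAA was in 13.1% against 19.8%. Sites were richer in G and C than their flanks, with medians of 49.4% and 43.5%, which these shares do not take into account.

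Sites lay mostly away from gene starts. Introns held 815 (45.9%), intergenic sequence 866 (48.8%), coding exons 28 and other exons 67, by GENCODE. Only 162 (9.12%) were within 1 kb of an annotated start, and the median distance was 23.0 kb. The start-proximal sites were wider (median 352.5 bp) and richer in G and C (56.7%). They overlapped a TRβ peak in 29.0% (Wilson interval 22.6% to 36.4%) and held the repeat in 16.7% (11.7% to 23.2%), both below the shares of all sites (49.0% and 30.9%).

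Density differed between chromosomes. Chromosome 6 had the highest, 0.890 sites per Mb, followed by chromosomes 3 (0.840), 10 (0.831) and 2 (0.803). Chromosomes 19 (0.424), 11 (0.468) and 9 (0.500) were the sparsest autosomes, and X had 30 sites (0.180 per Mb). Chromosome 11, sparse in these sites, had the most TRβ peaks per Mb of all chromosomes (4.79, against 2.71 on chromosome 6). The share of sites with a TRβ peak was 62.3% on chromosome 17 and 26.7% on X, where TRβ peaks were sparse as well (0.378 per Mb).

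**Figure D2:**
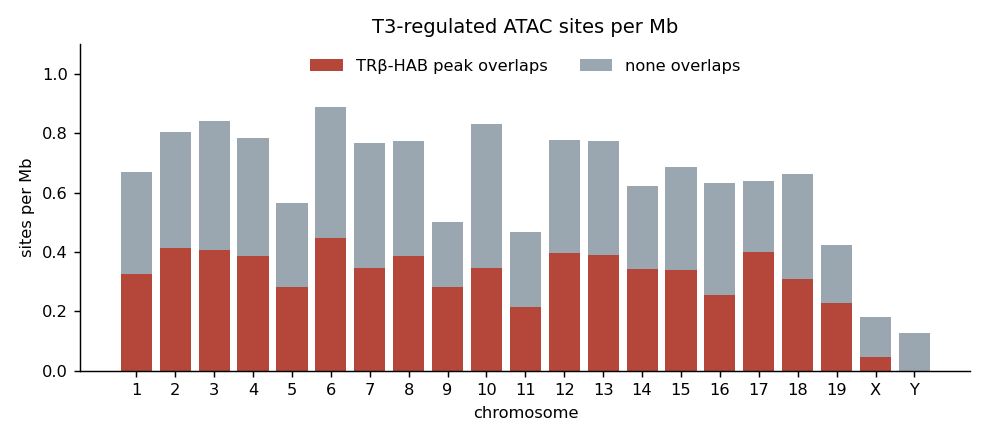
T3-regulated ATAC sites per Mb on each chromosome, as bars stacked by whether a TRβ-HAB peak overlaps the site. Chromosome 6 stands highest at 0.890 per Mb and chromosomes X and Y lowest. Among the autosomes the receptor share does not follow the density, and it is lowest on X and Y.

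RNA was then set beside the sites, to ask whether genes near T3-regulated chromatin changed with T3. A gene was called when the limma adjusted p was under 0.05 and the change at least 1.5-fold, and a site was assigned to a gene in or within 20 kb of its body. Of 13145 genes tested, 3.87% were called higher and 5.59% lower in hyperthyroid wild type. Of the 1014 with a site, 165 (16.3%) were higher and 74 (7.30%) lower, and of the 11952 placed genes without one, 339 (2.84%) were higher and 656 (5.49%) lower. The median log2 change was 0.06 with a site and −0.05 without. The lower share with a site was near the background, and the higher share above it.

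The higher share grew with the number of sites. It was 13.8% for 871 genes with 1 site, 29.1% for 117 with 2, and 42.3% (11 genes) for 26 with 3 or more, while the lower share was 8.04%, 3.42% and 0%. Of the 26, 2 had an unadjusted limma p under 0.05 with a fall, and edgeR called 0 lower. The medians were 0.04, 0.23 and 0.41, and 19 of the 26 lay above 0 against 42.6% of all placed genes. Genes with more sites are longer, with median bodies of 58.3, 142.1 and 262.2 kb against 23.5 kb without a site. Within the longest tertile of gene bodies the higher share was 17.0% of 617 genes with a site and 3.05% of 3705 without, and within the shortest 11.3% of 168 and 3.06% of 4154.

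**Figure D3:**
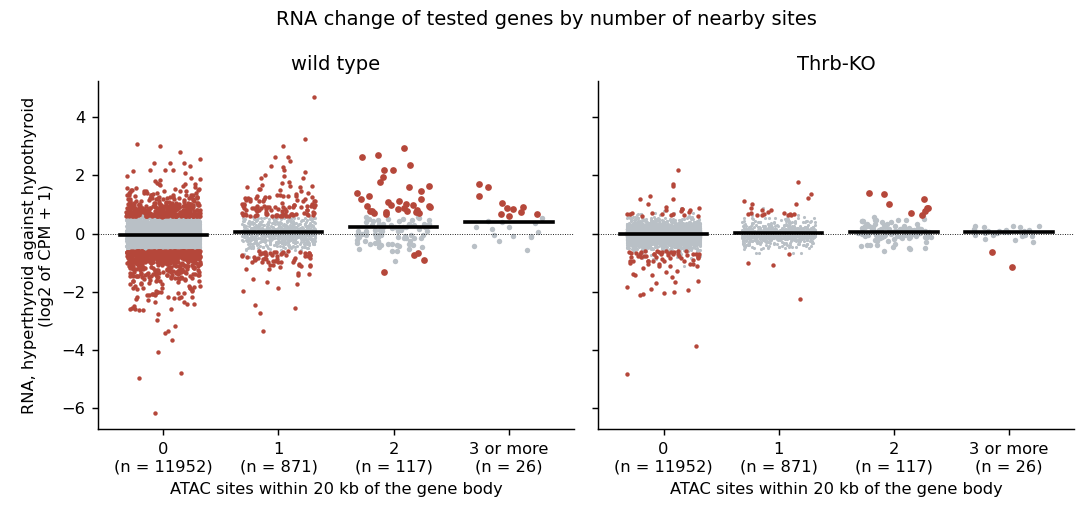
RNA change with T3 (hyperthyroid against hypothyroid, log2 of CPM + 1) in wild type and Thrb-KO, 1 point per tested gene, by the number of T3-regulated ATAC sites in or within 20 kb of the body. Red points are called genes and black lines medians, which go from −0.05 with no site to 0.41 with 3 or more in wild type and reach at most 0.06 in Thrb-KO.

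The share also fell with distance. Genes with a site in the body were called higher in 17.8% of 651, and those with the nearest site up to 5 kb away in 21.5% of 79. It was 11.3% of 284 at 5 to 20 kb, 6.95% of 518 at 20 to 50 kb, 3.71% of 836 at 50 to 100 kb and 2.51% of 9197 beyond 200 kb. The lower share had no such order, with 8.6% in the body, 2.53% up to 5 kb and 5.88% beyond 200 kb.

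**Figure D4:**
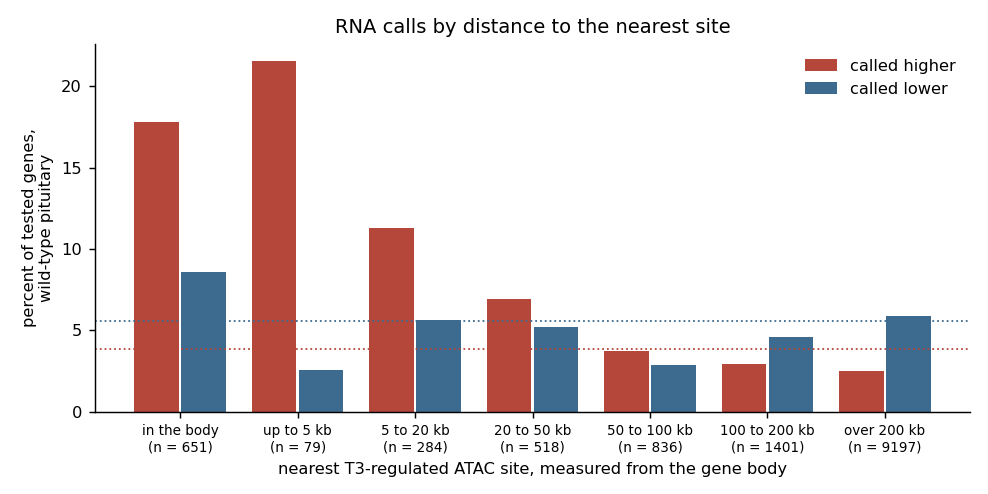
Percentage of tested genes called higher or lower in hyperthyroid wild-type pituitary, by the distance from the gene body to the nearest T3-regulated ATAC site, with dotted lines at the shares of all tested genes. The share called higher goes from 17.8% with a site in the body and 21.5% up to 5 kb to 2.51% beyond 200 kb, and the share called lower shows no steady order.

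The same comparison was made in Thrb-KO mice. Thrb RNA was not reduced in their libraries, at 271.8, 294.9, 277.5, 270.5 and 239.3 CPM in hypothyroid and 287.9, 300.5, 239.4, 245.1 and 228.1 CPM in hyperthyroid mice, so the RNA level does not check that label, and which part of the transcript those reads cover was not analysed here. In Thrb-KO, 0.411% of all tested genes were called higher and 0.601% lower. Of the 1014 genes with a site, 29 were higher and 6 lower. Of the 26 genes with 3 or more sites, 0 were higher by limma (0 at an unadjusted p under 0.05 and 0 by edgeR), and 2 were lower (Diap3 and Cntnap2). The response itself was larger in wild type (the difference between the 2 responses, 1.78% of all genes) for 84 of the 1014 genes and smaller or more negative (2.48% of all genes) for 35. Of the 26 it was larger for 8 and smaller for 0 by limma (0 at an unadjusted p under 0.05 and 0 by edgeR).

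The genes were then divided by receptor overlap. Of 554 with at least 1 site under a TRβ peak, 146 (26.4%) were higher and 23 (4.15%) lower (35 lower in replicates 3 to 5 alone), and of 460 with sites outside TRβ peaks only, 19 (4.13%) were higher and 51 (11.1%) lower, with medians of 0.19 and −0.05.

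Among all 18 libraries the recovered totals ran from 21453548 to 55273749 reads. TMM scaling moved the split of all calls from 40.9% to 55.1% higher and that of genes with a site from 69.0% to 76.1%. Markers of several cell types moved with treatment in wild type. The summed CPM of the 2 thyrotroph markers (Tshb and Trhr, both lower) was 2967 to 6525 in hypothyroid and 44.0 to 425.2 in hyperthyroid libraries. The 2 somatotroph markers (Gh higher, Ghrhr not called) were at 48440 to 66340 and 87480 to 159200, and the 2 lactotroph markers (1 of 2 higher) at 5951 to 9436 and 14670 to 53270. The 2 melanotroph markers (Pax7 and Pcsk2, neither called) were at 379.2 to 533.5 and 275.9 to 357.5, with a log2 change of −0.53 for Pcsk2 (limma adjusted p = 0.028, below 1.5-fold), and the 3 blood markers (none called by limma) at 28.5 to 55.5 and 65.7 to 77.7. The 3 stromal markers (2 of 3 lower) were at 68.6 to 115.8 and 42.6 to 87.2, which overlap, as did the sums of the other 6 lists (gonadotroph, corticotroph, stem and folliculostellate, posterior lobe, endothelial and immune). No defining marker of these lists was at 0, and their part in the results was not tested.

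The gene with the most sites, 2010111I01Rik on chromosome 13, had 5, all intronic and 4 of them under a TRβ peak. Its RNA was 8.33, 9.04, 10.4 and 8.96 CPM in the 4 hypothyroid and 15.8, 15.9, 14.8 and 18.1 CPM in the 4 hyperthyroid wild-type libraries. The groups did not overlap, and the log2 change was 0.75 ± 0.11 (SE; limma adjusted p = 4.23e-05). In Thrb-KO the change was 0.17 and was not called.

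Whrn, which encodes the scaffold protein whirlin of sensory hair cells, had 3 intronic sites, each under a TRβ peak. Its levels were 64.2, 63.2, 47.1 and 49.7 CPM in hypothyroid and 227.7, 180.8, 129.1 and 157.7 CPM in hyperthyroid wild type. Every hyperthyroid library was above every hypothyroid one, with a log2 change of 1.60 ± 0.14 (limma adjusted p = 1.63e-07). The Thrb-KO change was 0.11, and the difference between genotypes was 1.48 (limma adjusted p = 7.94e-05).

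Adamts17, a secreted metalloprotease gene with 3 intronic sites, went from 3.97, 3.73, 3.90 and 3.30 CPM to 13.1, 12.2, 8.03 and 9.79 CPM. The groups were apart, with a log2 change of 1.30 ± 0.15 (limma adjusted p = 2.63e-06) against −0.06 in Thrb-KO. Kazn, a gene of the desmosome and cytoskeleton, went from 22.2, 22.7, 17.7 and 18.5 to 46.3, 42.6, 33.8 and 31.8 CPM, a change of 0.89 (limma adjusted p = 1.45e-05). Sh3rf2, an E3 ubiquitin ligase gene on chromosome 18, went from 3.88, 3.5, 3.19 and 3.70 to 12.6, 14.1, 11.2 and 18.2 CPM, a change of 1.70 (limma adjusted p = 6.72e-09). In both the 2 groups of libraries were apart, and neither was called in Thrb-KO.

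The other 6 genes with 3 or more sites that rose were Snx24, a sorting nexin (1.04), Deptor, an inhibitor of mTOR (0.91), Hivep3, a zinc finger factor (0.84), Kcnmb2, a potassium channel subunit (0.67), 1700025G04Rik (0.67) and Cttnbp2nl (0.61). Libraries of the 2 groups overlapped for Deptor (hypothyroid up to 18.9 and hyperthyroid down to 16.1 CPM), 1700025G04Rik (70.3 and 69.1 CPM), Cttnbp2nl (54.1 and 52.0 CPM) and Hivep3. Hivep3 was at 41.6, 40.8, 18.4 and 21.5 CPM in hypothyroid and 70.3, 67.3, 34.6 and 45.2 CPM in hyperthyroid mice. Its limma adjusted p was 0.0425, and it rose to between 0.0513 and 0.157 without hypothyroid replicate 3 or 4 or without hyperthyroid replicate 1, 2 or 4. The call of 1700025G04Rik was lost without hyperthyroid replicate 1 (0.54) and in replicates 3 to 5 (0.50). That of Cttnbp2nl was lost without hypothyroid replicate 3 or 4 or hyperthyroid replicate 1 or 2 (0.48 to 0.58) and in replicates 3 to 5 (0.46), and that of Kcnmb2 without hyperthyroid replicate 4 (0.57).

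Several sites did not always come with an RNA change. Cdk14, a cyclin-dependent kinase gene, had 4 sites and a change of −0.11 (limma adjusted p = 0.677), and Fgfr2, a fibroblast growth factor receptor gene, had 4 and 0.22 (0.34). The GENCODE body of Fgfr2 is 3009 kb against 104.4 kb in RefSeq, so its 4 sites depend on the annotation. Itpr1, an IP3 receptor gene with 3 sites all under a TRβ peak, had a log2 change of −0.08 (limma adjusted p = 0.847).

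Diap3, a formin gene, had 4 sites and none under a TRβ peak. In wild type it lay at 3.00, 4.14, 4.59 and 3.95 CPM in hypothyroid and 4.72, 5.88, 5.03 and 7.22 CPM in hyperthyroid mice, a change of 0.44 (limma adjusted p = 0.0176) that was below 1.5-fold. In Thrb-KO it fell by 0.62 on the log2 scale (limma adjusted p = 0.00395), and the genotypes differed by 1.07 (limma adjusted p = 0.000653). Cntnap2, a neurexin family gene, fell by 1.16 in Thrb-KO (limma adjusted p = 1.2e-05) and its change of −0.57 in wild type (0.00634) was below 1.5-fold. Its hypothyroid level was 36.9 ± 7.46 CPM (SD, n = 4) in wild type and 74.4 ± 2.99 (n = 5) in Thrb-KO.

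**Figure D5:**
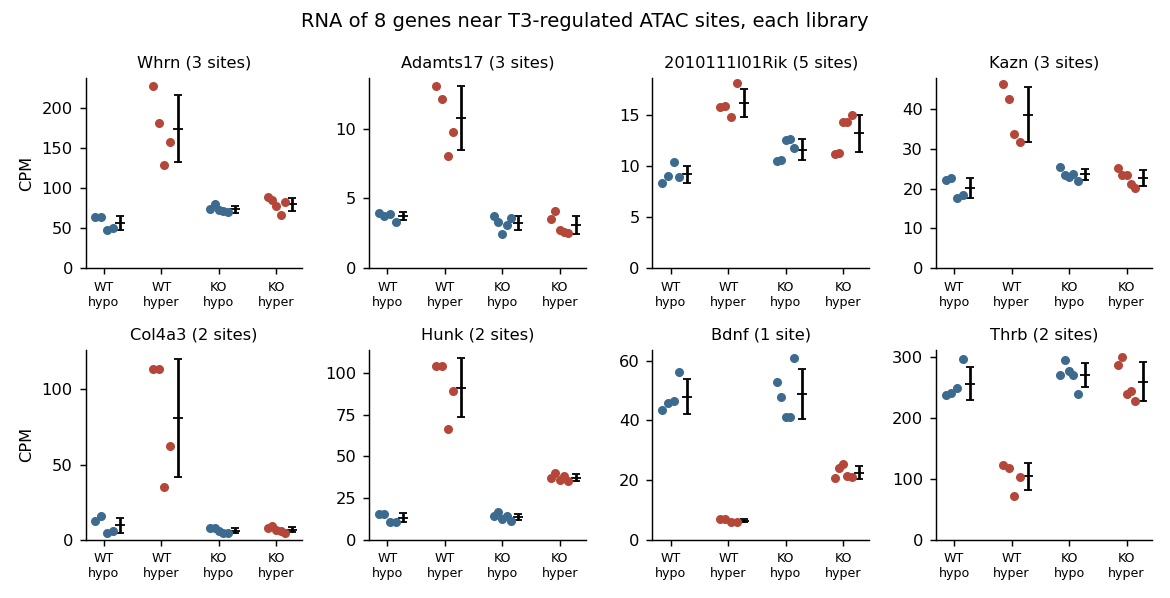
RNA level in CPM, on axes from 0, in each library for 8 genes near T3-regulated ATAC sites, by genotype and treatment, with the mean ± SD beside the points. Whrn, Adamts17, 2010111I01Rik, Kazn, Col4a3 and Hunk lie higher in every hyperthyroid than in every hypothyroid wild-type library, and Bdnf and Thrb lie lower.

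The 6 tested genes with a site and the largest rise were Sspo, Bmp7, Gbp3, Col4a3, Hunk and Ttbk1, and each had a site under a TRβ peak. Genes too low in some library to be tested stand outside this ranking, and those given below include Trhde and Lilra6, whose sites had no TRβ peak. Sspo, which encodes the secreted glycoprotein SCO-spondin, went from 3.62, 3.38, 2.73 and 2.14 to 104.6, 108.5, 72.6 and 128.6 CPM. This is the largest rise among tested genes with a site, at 4.71 ± 0.16 on the log2 scale (limma adjusted p = 8.42e-13), and the Thrb-KO change was 0.01. Bmp7, a bone morphogenetic protein ligand, went from 4.51, 4.02, 3.33 and 2.76 to 54.7, 55.8, 26.0 and 42.6 CPM, a change of 3.25 ± 0.18 (limma adjusted p = 5.22e-10) against 0.06 in Thrb-KO.

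Col4a3 and Col4a4 encode basement membrane collagen IV chains and share a start-proximal site at chr1:82583239-82583866, where they are transcribed away from each other. Both genes were assigned the same 2 sites, so this pair counts for each of them, and the other site lies in an intron of Col4a3. Col4a3 went from 12.2, 15.5, 4.68 and 5.73 to 113.8, 113.4, 35.0 and 62.3 CPM, a change of 2.95 ± 0.36 (limma adjusted p = 6.47e-06). Col4a4 changed by 2.18 ± 0.35 (limma adjusted p = 0.000139). Replicates 1 and 2 lay above 3 and 4 for both genes within each treatment, and neither gene was called in Thrb-KO.

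Hunk, a kinase gene, differed in keeping a response in Thrb-KO. It went from 15.6, 15.5, 10.9 and 10.8 to 104.4, 104.0, 66.7 and 89.4 CPM in wild type, a change of 2.70 ± 0.15 (limma adjusted p = 4.09e-10). In Thrb-KO it rose by 1.39 (limma adjusted p = 3.19e-06), and the difference of 1.31 was called as well (0.00042). Gbp3, an interferon-inducible GTPase gene, rose by 3.02 in wild type and 1.38 in Thrb-KO. Ttbk1, a tau kinase gene, rose by 2.65 and was not called in Thrb-KO (0.65, limma adjusted p = 0.11).

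The 6 largest falls among tested genes with a site were Serpinb1a (−3.34), Bdnf (−2.72), Asb4 (−2.56), Tmc3 (−2.46), Loxhd1 (−1.99) and Kcnmb4 (−1.88). Each had 1 site, and none of those 6 sites overlapped a TRβ peak. Bdnf, the brain-derived neurotrophic factor gene, went from 43.4, 45.8, 46.4 and 56.4 to 6.86, 6.82, 5.96 and 6.02 CPM, with groups far apart (SE 0.12, limma adjusted p = 1.79e-11). Its site, chr2:109533569-109533985, lies at an annotated start inside the gene. Bdnf also fell in Thrb-KO, by 1.07 on the log2 scale, and the genotypes differed by −1.64 (limma adjusted p = 3.63e-06). Tmc3, a transmembrane channel-like gene with its site at the start, went from 78.3, 79.6, 74.2 and 82.4 to 19.6, 16.8, 8.35 and 11.8 CPM (limma adjusted p = 1.13e-07).

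Sites at gene starts gave a more even count of rises and falls. There were 126 within 1 kb of a protein-coding start, 29 of them (23.0%) under a TRβ peak, at 122 genes of which 89 were tested. Of these 18 were higher and 14 lower, with a median change of 0.05. Both shares are above those of all tested genes, 3.87% higher and 5.59% lower. A TRβ peak lay at 13 of the 18 and at none of the 14. Besides those above, the lower genes included Ednra, an endothelin receptor (−1.13), Gng4, a G protein subunit (−1.12), and Pld3, a phospholipase D family member (−1.23). The higher ones included Adcy7, an adenylyl cyclase (1.90), Syt9, a synaptotagmin (1.31), and Ptges, a prostaglandin E synthase (1.11). These 6 were chosen after their values were seen.

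Thrb itself had 2 intronic sites, at chr14:18506799-18507156 and chr14:18507818-18507921, and the first was under a TRβ peak of 57 reads against 4 in the control. Its RNA went from 238.7, 242.0, 249.0 and 297.1 to 123.5, 117.2, 72.4 and 103.1 CPM in wild type. The groups were apart and the change was −1.32 ± 0.14 (limma adjusted p = 1.27e-06), while in Thrb-KO it was −0.06. Thrb was 1 of 4 genes with 2 sites that fell, with Plcb1, a phospholipase C gene (−0.93), Bmper, a BMP-binding protein gene (−0.75), and Dner, a Notch ligand gene (−0.65). The call of Dner was lost with TMM scaling (−0.55), with edgeR (−0.57), in replicates 1 and 2 (−0.35) and without hyperthyroid replicate 3 (−0.46), and that of Bmper in replicates 1 and 2 (−0.42).

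Of the 7 pituitary hormone genes only Gh had a site, the widest of the list. Gh went from 48330, 51020, 66230 and 57730 to 104300, 87360, 159100 and 112100 CPM, a change of 1.03 ± 0.21 (limma adjusted p = 0.0017), with groups apart. The change in Thrb-KO was 0.50 (limma adjusted p = 0.337), also with groups apart. The difference between genotypes was 0.53 (limma adjusted p = 0.447) and was not called. Prl, the prolactin gene, rose by more than Gh (1.70, limma adjusted p = 0.000491), and its nearest site lay 718484 bp away. Hr, a classic T3 target gene, rose by 2.82 (limma adjusted p = 3.21e-09) with its nearest site at 112213 bp. The genes that fell most on the thyroid axis had no site within 20 kb either. Cga, the common subunit gene of TSH and the gonadotropins, fell by 2.55 on the log2 scale, and its nearest site lay 174938 bp away. For Tshb and Trhr, the TRH receptor gene, the nearest sites were 714771 and 669467 bp away, and for Dio2, the T4-activating deiodinase, 2285291 bp.

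Of the 17 receptors of hypothalamic and peripheral feedback signals, 3 had sites. Esr1, the estrogen receptor α gene, had 2 intronic sites and went from 163.4, 185.7, 77.3 and 90.2 to 314.0, 331.2, 140.3 and 207.4 CPM. These groups overlapped, the change was 0.95 (limma adjusted p = 0.0305), and the adjusted p was 0.0933 to 0.118 without hypothyroid replicate 3 or 4 or hyperthyroid replicate 1 or 2. Ghr, the growth hormone receptor gene, was not called (0.23, limma adjusted p = 0.254). Sstr3, a somatostatin receptor gene, had a log2 change of −0.58 (limma adjusted p = 0.000403), just below 1.5-fold. None of 18 lineage transcription factor genes had a site, though 3 of the 15 tested were called higher and 2 lower.

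Of 17 thyroid hormone action genes, Thrb and Ncoa1 had sites. Ncoa1, a receptor coactivator gene, had a log2 change of 0.52 (limma adjusted p = 0.0194), below 1.5-fold, and passed that fold with TMM scaling (0.62) and edgeR (0.60). Of 22 classic T3 targets, 7 had a site and 5 of those were tested. Bcl3, an IκB family gene, rose by 2.01 (limma adjusted p = 1.12e-08), Klf9, a Krüppel-like factor gene, by 0.88 (9.95e-05) and Myh7, a myosin heavy chain gene, by 2.63 (1.78e-08). Pdk4, a pyruvate dehydrogenase kinase gene, fell by 0.88 on the log2 scale (limma adjusted p = 0.0155, and 0.065 without hypothyroid replicate 3), and Fasn, fatty acid synthase, was not called (0.07). Klf9 rose in Thrb-KO too, by 0.67 (limma adjusted p = 0.00338).

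Myh6 and Myh7 lie side by side and share the site printed above. Myh6 was at 0.237 ± 0.0805 CPM (SD, n = 4) in hypothyroid and 72.2 ± 26.4 CPM (n = 4) in hyperthyroid wild type, and had no test because it was under 1 CPM in the other groups. Their coding sequences are alike, so reads may be shared between them.

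Of 14 insulin and IGF signalling genes, 4 had a site. Foxo6, a forkhead factor gene, went from 7.73, 7.99, 5.62 and 4.02 to 40.6, 33.0, 26.6 and 37.3 CPM, with groups apart, and rose by 2.29 (limma adjusted p = 8.95e-09). It rose by 1.12 in Thrb-KO. Akt2, a kinase of the insulin pathway with 2 neighbouring sites, rose by 1.01 (limma adjusted p = 1.05e-06). Igf1r (0.30, limma adjusted p = 0.172) and Irs2 (0.39, limma adjusted p = 0.438) were not called. Of 10 AP-1 family genes only Junb had a site, and it was not called (0.32, limma adjusted p = 0.782).

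Of genes with 3 or more sites, 9 were outside the test because they were at or under 1 CPM in some library. Trhde encodes the enzyme that degrades thyrotropin-releasing hormone, and its 3 sites in the gene body had no TRβ peak. The site at chr10:114238672-114239018 lies 246 bp from an annotated start. It was at 0.143, 0.262, 0.184 and 0.145 CPM in hypothyroid and 7.54, 9.40, 6.97 and 16.7 CPM in hyperthyroid wild type. In Thrb-KO it went from 0.349 ± 0.123 CPM (SD, n = 5) to 1.82 ± 0.307 (n = 5), and the groups were apart in both genotypes. Ceacam16, a secreted protein gene of the inner ear, had 3 sites and a TRβ peak of 168 reads against 9 at the widest of them. It went from 0.371, 0.379, 0.253 and 0.217 to 16.9, 16.7, 14.7 and 16.4 CPM in wild type and from 0.436 ± 0.0873 to 4.18 ± 1.16 CPM (SD, n = 5) in Thrb-KO. Lilra6, a leukocyte receptor gene of a multigene family whose reads may be shared with its copies, went from 0.344 ± 0.292 to 9.54 ± 2.78 CPM (SD, n = 4) with no TRβ peak at its 3 sites. Cd96 went from 0.133 ± 0.0536 to 1.65 ± 0.800 CPM, and the other 5 (1700061G19Rik, 9530036O11Rik, Acsbg2, Epha6 and Plac8l1) had means under 2 CPM in all 4 groups.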

How the data were processed

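The ATAC-seq libraries were mapped by the authors with Bowtie2 to mm9, peaks were called with MACS2 (p 1e-5, bandwidth 300) and compared between conditions; both edgeR and SICER are named for that comparison in the sources used here. The deposited list gives coordinates, a peak number and an adjusted p-value, from the authors' own comparison, that was used only to make a stricter list (under 0.01). It holds no per-library counts, so ATAC depth is unknown. TRβ peaks were deposited with read counts of the tagged and control samples. Intervals cover counting error only. No ATAC-seq test was made here.

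RNA values were deposited as CPM per transcript. Whole reads were recovered for 100% of values by the step of 1 read in each library. Sites were placed with GENCODE on mm9, 21695 of 22835 genes by symbol and 122 by accession. The transcript with the highest mean CPM stood for a gene, and genes above 1 CPM in all 18 libraries were tested with limma 3.58.1 (lmFit, eBayes with trend, R 4.3.3) on log2(CPM + 1) over the 4 groups, Benjamini-Hochberg adjusted over 13145 genes. Fold changes are on that scale, which understates the change of low genes. The script was checked on simulated data. Separate mice are not stated for every library, so p-values measure the spread between pools. Alternatives were edgeR 4.0.16 on recovered reads, TMM factors, other pseudocounts and filters, transcript sums, library sets, distances, and leaving out 1 library. Site motifs were counted in the mm9 sequence with pysam 0.24.0, and Wilson intervals came from scipy 1.17.1.

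Same-numbered libraries deviated together (r from 0.255 to 0.815 over 9 pairs). So did libraries of different number within replicates 1 and 2 and within replicates 3 to 5, while r between these sets was below 0. Deviations were taken from group means and sum to 0, so r between the sets is no separate observation. Wild-type hypothyroid replicate 4 had r = 0.755 with hyperthyroid replicate 3 and 0.255 with hyperthyroid replicate 4. The numbers served as the block in an alternative fit, but pairing number by number is not shown. Named genes were the 12 tested genes with most sites, the 6 largest rises and 6 largest falls with a site whose groups do not overlap, Gh, Foxo6, Ceacam16, Thrb and Cga, list members with a site, genes in the 5 densest groups of sites, and the 5 largest called differences between genotypes. Beyond these, all genes with 3 or more sites and the called genes with 2 sites or a site at the start were drawn on after their values were seen. The members and lists were chosen with earlier results of these data known. One named gene is not reported here.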

Additional observations from a re-analysis of the deposited data

Results flagged for a closer look

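A value far from the others of its group was found in 6 of 236 groups of libraries tested with Dixon's criterion (2.54%), where chance gives about 1 in 20. In hyperthyroid wild type, replicate 4 was highest for Asb4 (68.3 CPM, the others 46.7 to 47.9), Snx24 (23.4 CPM, 13.6 to 14.7) and Ucp3 (0.34 CPM, 0.203 to 0.225). In hypothyroid Thrb-KO, replicate 5 was highest for Cdk14 (68.9 CPM, 60.1 to 61.3) and lowest for Nfkb1 (35.5 CPM, 39.5 to 40.3), and replicate 1 was highest for Myh6 (0.342 CPM, 0.16 to 0.197).

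The response to T3 differed between wild type and Thrb-KO by limma's interaction term for 24 of 55 tested genes, with 17 differences above 0 (1.78% of all genes tested) and 7 below (2.48%). The 55 are the genes of the naming rule (41 tested, 19 with such a difference) and the others with 3 or more sites. Some of them were named for this very difference or for a large wild-type change, so the count is a description. Wild-type change minus Thrb-KO change, on the log2 scale, was 4.69 for Sspo, 3.20 for Bmp7, 2.99 for Myh7, 2.83 for Col4a3, 2.00 for Ttbk1, 1.64 for Gbp3, 1.60 for Bcl3, 1.31 for Hunk and 1.17 for Foxo6. Among genes with 3 or more sites it was 1.48 for both Whrn and Sh3rf2, 1.35 for Adamts17, 1.07 for Diap3, 0.95 for Kazn, 0.81 for Snx24 (limma adjusted p = 0.0439), 0.76 for Kcnmb2 and 0.59 for 2010111I01Rik (limma adjusted p = 0.0198). The differences below 0 were −2.21 for Asb4, −1.80 for Tmc3, −1.70 for Loxhd1, −1.64 for Bdnf, −1.54 for Kcnmb4, −1.26 for Thrb and −1.08 for Serpinb1a (limma adjusted p = 0.026). Serpinb1a fell in both genotypes, by 3.34 in wild type and 2.26 in Thrb-KO.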

How the results depend on the processing

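The counts of genes near a site called higher (165) and lower (74) in wild type stayed within 1.5 times under the other RNA choices, except that 132 were lower with no minimum fold. With a 100 kb window 125 genes were lower, 104 had 3 or more sites and their median was 0.19; with the stricter list of sites 44 genes were lower and 10 had 3 or more sites. A gap of 50 kb clustered 334 sites. Protein-coding genes alone held 48.3% of sites, and with an overlap of 0.5 of the site 41.4% of lone sites had a TRβ peak. The repeat share was 5.03% and 60.3% of clustered and 6.72% and 62.4% of lone sites with 1 and 3 mismatches. Without 1 library the ranges were 153 to 198 higher, 63 to 80 lower, 26 to 36 called in Thrb-KO, 101 to 158 called for the difference between genotypes and 0.35 to 0.55 for the median of genes with 3 or more sites. The replicate block gave 167 higher, 81 lower, 44 in Thrb-KO, 154 for the difference and 0.41, and changed no call of the 55 tested genes that were named or had 3 or more sites. Replicates 1 and 2 gave 181 higher and 65 lower, replicates 3 to 5 gave 162 and 94. Directions turned in some setting for 7 of these 55 genes, none of them called. The turned value lay further from 0 than 1 SE of the main fit for Junb (−0.72 in replicates 1 and 2) and Ptprk (−0.17 in replicates 3 to 5). The others were Itpr1 (0.12 without hyperthyroid replicate 3), Nfkb1, Cdk14, Ndufa10 and Fasn. Of the 33 called among them 7 lost their call in some setting; for Gh this was with no filter on low values (limma adjusted p = 0.972). The causes were not tested.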

Other observations

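Of 38 called genes with 2 sites 34 rose. The few named here were chosen after their values were seen and stand for no functional group. They are Slc6a11, a GABA transporter (2.64 on the log2 scale), Gpr83, an orphan receptor (1.64), Slco5a1, an organic anion transporter family member (1.59), Gabbr2, a GABA-B receptor subunit (1.18), and Kcnc1, a potassium channel (1.12). Slc6a11 went from 26.3, 29.1, 20.6 and 22.4 to 197.3, 156.2, 136.3 and 143.2 CPM in wild type, with groups apart. It rose by 1.01 in Thrb-KO, and the genotypes differed by 1.63 (limma adjusted p = 6.86e-06). Slco5a1, whose site holds an exact repeat, rose by 1.35 in Thrb-KO, where the difference from wild type was 0.24 (limma adjusted p = 0.949). Klf13, a Krüppel-like factor gene like Klf9, rose by 0.77 in wild type and 0.70 in Thrb-KO.

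The peak numbers of the list run from 3 to 39302 in genomic order. Of the 104 gaps of at most 20 kb, 92 (88.5%) joined consecutive numbers. On chromosome 10 there were 35.9 numbers per Mb, against 8.44 to 16.2 on the other autosomes and X. In bins of 26 Mb along chromosome 10 there were 72.8, 39.4, 27.3, 25.0 and 20.9 numbers per Mb, and 28.6%, 30.4%, 50.0%, 68.4% and 36.0% of its sites had a TRβ peak.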
